A study of Mus musculus with 38 samples.

Results

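Bulge stem cells of mice with a melanocytic nevus at postnatal day 56 (P56) were compared with bulge stem cells of wild type mice of that age. The comparison rests on 4 of the 38 bulk RNA sequencing libraries of the series, 2 wild type and 2 mutant, chosen by the cell type, age and genotype in their labels. Both genotypes carried K14-H2B-GFP, a nuclear green reporter driven by a keratin promoter. Mutant mice also carried a transgene of oncogenic *Nras* under the tyrosinase promoter, a regulatory region that the study calls highly specific to melanocytes. In the study these mice serve as a model of congenital nevi and show excess hair growth. At P56 wild type dorsal follicles rest (telogen), and at P30 they grow (anagen). Mutant skin at P56 holds growing follicles beside resting ones, and the sort, on GFP, CD34 and low P-cadherin, did not separate them. More growing follicles in a sample and a changed state of each resting follicle therefore cannot be told apart, and neither can fewer cells of a type and less RNA per cell. Of 20224 genes in the deposited bulge table, 12034 protein-coding genes with 1 FPKM or more in at least 2 of the 4 libraries were tested. FPKM are read fragments per kilobase of transcript and per fixed number of fragments sequenced, so that levels of different genes can be set side by side per length.

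The bulge is the niche of the hair follicle where slowly cycling stem cells sit between periods of growth. BMP signals, nuclear NFATC1 and a firm anchorage to the basement membrane are known to hold these cells at rest, while WNT signals and loss of BMP signals start growth. During growth their progeny form the outer root sheath, the inner root sheath that moulds the hair, and the matrix that makes the hair shaft, and each of these layers has its own keratins, gap junctions and secreted factors.

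The FPKM values of the 8 bulge libraries of both ages summed to 677457 to 738064, and 12174 to 12731 genes stood at 1 FPKM or more in each. Read totals are not in the table and the study gives its depth only as an average range, so the depth of each library is not known. Across genes the log2 values of the 2 libraries correlated at 0.964 in wild type and 0.972 in mutant cells at P56, below the 0.993 and 0.982 of the P30 groups. The methods of the study speak of biological triplicates, while 2 libraries a group are labelled here and no label ties a library to an animal, so the p-values measure a spread that may be technical. *Nras* itself (chromosome 3, 103058285 to 103067914 on GRCm38) stood at 32.40 and 30.99 FPKM in the wild type and at 52.50 and 42.29 FPKM in the mutant P56 libraries. The groups did not overlap, as with 26% of the genes tested, where both mutant libraries stood above both wild type ones. The log2 change of 0.56 ± 0.17 (SE) missed the threshold (limma adjusted p = 0.0538). No source says if transgene reads were assigned to *Nras*.

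Markers of the sorted cells were high in all 4 libraries. *Perp*, a desmosome-associated gene of stratified epithelia, stood at 2052 and 2017 FPKM in wild type and 2219 and 2106 FPKM in mutant cells. *Krt14*, the basal keratin, stood at 10135 and 4708 FPKM against 11667 and 10246 FPKM. Of 7 keratinocyte markers 1 fell, *Krt15*. At the RNA level the genes of the 2 surface proteins that set the gate moved apart. The study stained both proteins and reports wild type patterns in resting follicles of the mutant. *Cd34* (chromosome 1, 194938819 to 194961279), the sialomucin that marks bulge cells, stood at 464.69 and 905.80 FPKM in wild type and at 59.71 and 112.07 FPKM in mutant cells (log2 change -2.97 ± 0.35, adjusted p = 0.000729). *Cdh3*, which encodes P-cadherin and is higher in the hair germ than in the bulge, stood at 37.39 and 33.31 FPKM against 64.36 and 113.37 FPKM (1.25 ± 0.26, adjusted p = 0.011). Without mutant replicate 2, the library with the higher value, *Cdh3* was no longer called. Of 5 hair germ markers tested, *Cdh3* was the only riser. The other 4 had negative changes that were not called, and the median was -0.65. *Itga6*, the integrin chain that is used to mark basal cells, stood at 86.02 and 83.58 FPKM against 42.89 and 55.92 FPKM, a log2 change of -0.78 that stayed under the 2-fold threshold.

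Marker lists of other cells were summed in the same way. Markers of neighbouring epithelial layers were abundant. The 8 markers of infundibulum, isthmus and sebaceous gland summed to 1456.51 and 687.07 FPKM in wild type and 1474.07 and 361.78 FPKM in mutant cells, and 5 of the 8 fell (median -1.23), a number that was 1 to 4 in the fits without 1 P56 library and lowest without mutant replicate 2. The 6 markers of the inner bulge and companion layer summed to 706.06 and 1201.86 FPKM against 1924.10 and 923.43 FPKM, and 3 of them fell (median -1.53), *Fgf18*, *Fst* and *Krt80*. *Krt6a* and *Krt75* of this list had positive log2 changes of 1.09 and 1.16 and were not called. The 10 fibroblast markers summed to 20.81 and 17.72 FPKM in wild type and 166.22 and 111.06 FPKM in mutant cells, and 6 of the 7 that passed the FPKM filter rose. Of the 7 fibroblast markers, 2 reached 1 FPKM only in mutant cells. *Dcn*, for the proteoglycan decorin, was the most abundant fibroblast marker in mutant cells (10.29 and 4.40 FPKM against 100 and 47.11 FPKM), while *Pdgfra*, the defining receptor of fibroblasts, stayed at 0.43 FPKM or less. The 9 muscle and mural markers summed to 28.54 and 3.76 FPKM in wild type and 164.58 and 211.28 FPKM in mutant cells, nearly all of it *Acta2* and *Tagln*, with *Myh11* at 0.27 FPKM or less and *Des* at 0.75 FPKM or less. The 9 melanocyte markers summed to 46.22 and 61.40 FPKM in wild type and 24.63 and 29.79 FPKM in mutant cells, so they were lower in the mutant, with *Tyr* at 0.45 FPKM or less. The difference was mostly *Mitf*, a transcription factor gene (21.71 and 33.62 FPKM against 2.42 and 2.37 FPKM, -3.05 ± 0.26). *Dct*, a pigment enzyme gene, stood at 13.22 and 12.34 FPKM against 8.20 and 11.93 FPKM. Of 8 T cell markers 3 passed the filter and 2 fell, *Cd3g* and *Cd3e*, with sums of 13.51 and 7.25 FPKM against 5.72 and 2.68 FPKM. Of these 3, 2 reached 1 FPKM only in wild type and 1 only in mutant libraries, so their directions were fixed by the filter. Langerhans cell markers were carried unevenly by the wild type libraries, with *Cd74* at 324.46 FPKM in replicate 1 and 44.65 FPKM in replicate 2 against 23.67 and 63.31 FPKM in the mutant. Erythrocyte markers summed to 53.77 and 53.34 FPKM in wild type and 10.35 and 12.62 FPKM in mutant cells. Of the 4 tested, *Hba-a1* fell and *Alas2* rose. Adipocyte markers summed to 3.49 and 5.06 FPKM against 13.29 and 16.08 FPKM, and endothelial ones to 3.79 and 1.43 FPKM against 5.90 and 4.48 FPKM. Most of the adipocyte sum in mutant cells was *Fabp4*, the only 1 of 6 markers that passed the filter (2.36 and 2.03 FPKM against 11.71 and 13.56 FPKM). Its call was lost without wild type replicate 2 and without mutant replicate 2. The part that the cells of these marker lists have in the changes below was not tested.

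Between mutant and wild type bulge cells at P56, 1493 of the 12034 genes (12.4%) passed the test, an adjusted p under 0.05 with a change of 2-fold or more. Of these, 715 (5.94%) were higher and 778 (6.47%) lower in the mutant. The median log2 change over all genes was -0.05. Both mutant libraries stood above both wild type libraries in 3131 genes (26%) and below both in 3948 (32.8%), so groups that do not overlap are common here. Of the 1493 calls, 888 were kept in each of the 4 fits that leave out 1 P56 library, and genes said below to have risen or fallen are among those 888 unless a sentence says otherwise. Fold changes are on the scale log2(FPKM + 1), which understates those of genes with low FPKM. Of the genes tested, 246 reached 1 FPKM only in the mutant libraries and 256 only in the wild type ones. These had to differ in order to be tested at all, so the counts per list above and below describe the lists and are no test of them. Among the genes named below, those that reached 1 FPKM only in wild type libraries include *Nog*, *Fzd9*, *Pparg* and *Cyp2g1*. Those that did so only in mutant libraries include *Inhba*, *Slc7a11*, *Ntn1*, *Timp1*, *Serpine2* and *Sprr4*. The directions of such genes were fixed by the filter.

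The largest rises outside the keratins and connexins were in genes of different kinds. *Slc7a8*, which encodes an exchanger of neutral amino acids (chromosome 14, 54722209 to 54781946), stood at 9.44 and 3.84 FPKM in wild type and at 173.76 and 272.34 FPKM in mutant cells (4.94 ± 0.36, adjusted p = 8.43e-05). *Cnn3*, for the actin-binding protein calponin 3, stood at 6.26 and 1.61 FPKM against 109.98 and 85.07 FPKM (4.49 ± 0.39). *Anxa3*, for an annexin that binds membranes in the presence of calcium, stood at 1.97 and 0.69 FPKM against 50.24 and 70.22 FPKM (4.75 ± 0.31). In each of these the lower mutant library stood more than 10 times above the higher wild type library. *Ggt1*, for the surface enzyme that breaks down glutathione, stood at 3.08 and 0.10 FPKM against 45.56 and 72.00 FPKM (4.78 ± 0.54). *Cmah*, whose enzyme makes a sialic acid that humans lack, stood at 1.65 and 0.11 FPKM against 40.34 and 74.01 FPKM (5.02 ± 0.40). *Csn3*, a casein gene, and *Fndc1*, for a protein with fibronectin domains, rose by 4.47 and 4.45. In the P30 libraries of both genotypes all of these genes stood near the level of the mutant P56 libraries. *Slc7a8* was at 217.19 and 221.19 FPKM in wild type and 170.52 and 123.04 FPKM in mutant cells at P30, and *Cnn3* at 126.31 and 124.53 FPKM against 115.26 and 104.52 FPKM.

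The largest falls were likewise in genes of different kinds. *Chat*, for the enzyme that makes acetylcholine (chromosome 14, 32408203 to 32465989), stood at 40.48 and 76.49 FPKM in wild type and at 0.94 and 2.25 FPKM in mutant cells (-4.50 ± 0.34, adjusted p = 0.000113). *Sncg*, for gamma-synuclein, stood at 146.42 and 218.40 FPKM against 12.42 and 4.01 FPKM (-4.46 ± 0.43). *Akr1c18*, for an enzyme that inactivates progesterone, stood at 426.09 and 234.55 FPKM against 17.18 and 16.99 FPKM (-4.13 ± 0.29). No mutant library reached the level of a wild type library in these 3 genes, as in 32.8% of all genes tested. *Col8a2*, a short-chain collagen gene, stood at 97.45 and 166.45 FPKM against 4.85 and 6.86 FPKM (-4.24 ± 0.28). *Myoc*, for the secreted protein myocilin, stood at 193.52 and 253.88 FPKM against 13.16 and 20.88 FPKM (-3.66 ± 0.27). *Il31ra*, a receptor chain for an itch cytokine, stood at 73.49 and 123.67 FPKM against 2.91 and 5.54 FPKM (-4.25 ± 0.31). *Tgm5*, a transglutaminase gene of cornified layers, was uneven in wild type cells, at 108.13 FPKM in replicate 1 and 552.35 FPKM in replicate 2, against 13.32 and 20.44 FPKM (-3.81 ± 0.60). *Mrgprf*, an orphan receptor gene, fell by 3.58. At P30 these 8 genes were at 2.37 FPKM or less in all 4 libraries, so their high level was that of the wild type P56 cells alone among the 4 bulge groups.

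**Figure D1:**
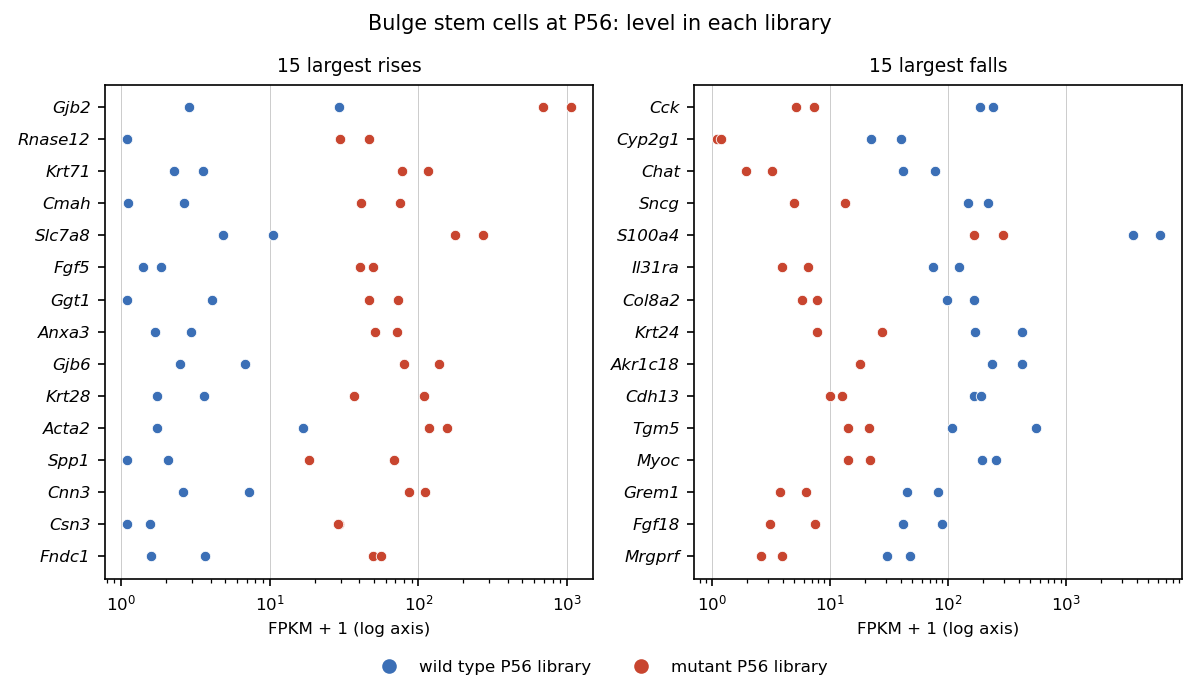
Level at P56 of the 15 genes that rose most and the 15 that fell most (FPKM + 1, log axis), 1 point per library, blue wild type and red mutant. In none of the 30 genes do the libraries of the 2 genotypes overlap, which the rule for naming them required. *Chat* stands at 40.48 and 76.49 FPKM in wild type and at 0.94 and 2.25 FPKM in mutant cells.

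Keratins of the inner root sheath rose together. On GRCm38 the type I keratins of this layer lie side by side on chromosome 11 and the type II ones on chromosome 15. The 250 bases before the RefSeq start of 5 of them (GRCm38.p6, all on the minus strand) are shown because these 5 were near 0 in wild type and expressed in mutant libraries. The letters TATAAA, searched on the gene's own strand in the last 50 bases, are in capitals. *Krt25* (chr11:99322952-99323201), *Krt27* (chr11:99351119-99351368) and *Krt28* (chr11:99374904-99375153) are type I, and *Krt71* (chr15:101743098-101743347) and *Krt73* (chr15:101802361-101802610) type II.
Krt25: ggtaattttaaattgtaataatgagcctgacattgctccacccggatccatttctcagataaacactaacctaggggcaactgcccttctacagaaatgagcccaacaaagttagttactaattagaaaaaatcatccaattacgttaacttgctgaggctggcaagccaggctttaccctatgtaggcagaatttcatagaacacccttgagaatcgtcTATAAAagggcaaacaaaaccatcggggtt
Krt27: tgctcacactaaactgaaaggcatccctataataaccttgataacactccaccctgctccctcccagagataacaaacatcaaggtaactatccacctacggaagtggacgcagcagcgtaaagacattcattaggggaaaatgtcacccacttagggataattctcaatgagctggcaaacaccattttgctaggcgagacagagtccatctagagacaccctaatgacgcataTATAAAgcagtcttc
Krt28: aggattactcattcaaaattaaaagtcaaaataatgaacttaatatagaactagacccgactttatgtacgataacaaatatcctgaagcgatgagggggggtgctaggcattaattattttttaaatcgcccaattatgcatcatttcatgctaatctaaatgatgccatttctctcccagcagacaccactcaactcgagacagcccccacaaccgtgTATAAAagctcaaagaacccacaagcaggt
Krt71: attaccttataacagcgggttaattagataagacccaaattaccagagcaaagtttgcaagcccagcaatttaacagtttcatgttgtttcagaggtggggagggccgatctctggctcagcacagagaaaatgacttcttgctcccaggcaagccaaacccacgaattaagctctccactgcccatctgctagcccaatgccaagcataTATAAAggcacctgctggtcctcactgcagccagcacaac
Krt73: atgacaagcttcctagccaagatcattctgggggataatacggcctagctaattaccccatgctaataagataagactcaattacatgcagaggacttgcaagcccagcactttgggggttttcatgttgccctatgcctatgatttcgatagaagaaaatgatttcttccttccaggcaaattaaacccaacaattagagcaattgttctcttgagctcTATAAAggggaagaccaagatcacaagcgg
The capitals begin 30 bases before the start of *Krt25*, *Krt28* and *Krt73*, 15 before that of *Krt27* and 40 before that of *Krt71*. Those letters stood in that window of all 5, of 2.63% of 32851 promoters in the RefSeq table, of 1.5% of the 11685 promoters of genes tested here and of 2 of the 14 other tested keratin genes that have a promoter in that table. This describes the letters and not a site that is used.

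Of 14 inner root sheath genes 10 passed the FPKM filter and 8 of these rose, with a median log2 change of 3.25. Of the 10, 3 reached 1 FPKM only in mutant cells. *Krt25* stood at 1.42 and 0.66 FPKM in wild type and at 52.62 and 33.84 FPKM in mutant cells (4.43 ± 0.27, adjusted p = 7.96e-05). *Krt28* stood at 2.61 and 0.73 FPKM against 107.94 and 35.71 FPKM (4.66 ± 0.49), and *Krt27* at 0.84 and 0.43 FPKM against 24.67 and 19.87 FPKM (3.83 ± 0.26). *Krt73* stood at 0.23 and 0.55 FPKM against 13.05 and 11.68 FPKM (3.27 ± 0.30). Every mutant library stood above both wild type libraries in these 4 keratins and in *Krt71*, the type II keratin with the largest rise (5.05 ± 0.28). The same held for 26% of all genes tested. *Cux1*, a transcription factor gene of this layer, rose as well, from 25.78 and 6.27 FPKM to 189.19 and 88.70 FPKM (3.23 ± 0.54). *Gata3*, the regulator known for the inner root sheath, stood at 204.10 and 94.56 FPKM against 106.75 and 97.37 FPKM and was not called (adjusted p = 0.358). The rises of *Tchh* and *Padi3*, for trichohyalin and an enzyme that modifies it, were lost without wild type replicate 2 and without mutant replicate 1. The list held 6 calls without mutant replicate 1 and 7 without wild type replicate 2.

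Keratins of other layers moved both ways, in part next to each other on the chromosome. *Krt24* (chromosome 11, 99279959 to 99285262), which lies beside *Krt25*, stood at 170.26 and 425.18 FPKM in wild type and at 6.77 and 26.60 FPKM in mutant cells (-4.21 ± 0.57, adjusted p = 0.00146). *Krt15*, the bulge keratin, fell from 12592 and 18542 FPKM to 3581 and 4250 FPKM (-1.97 ± 0.20). Its neighbour *Krt19* (100140810 to 100148665), another bulge keratin, stood at 1.12 and 0.46 FPKM against 10.54 and 12.00 FPKM (2.80 ± 0.24). *Krt17*, a keratin of the outer root sheath and of activated epidermis, stood at 1554 and 983 FPKM against 8082 and 8028 FPKM (2.70 ± 0.21, adjusted p = 0.000127). *Krt16*, its companion in activated epidermis, stood at 63.25 and 30.77 FPKM against 413.57 and 191.46 FPKM (2.64 ± 0.39). *Krt80*, of the inner bulge layer, fell from 132.46 and 143.42 FPKM to 30.43 and 11.63 FPKM (-2.80 ± 0.39). Of 16 outer root sheath and basal keratin genes, 6 rose and 3 fell. Among 31 keratin genes tested, 14 rose and 4 fell, 8 and 3 of 15 on chromosome 11 and 6 and 1 of 16 on chromosome 15. *Krt6b* has a close copy in *Krt6a*, so its level is uncertain, and its rise was lost without wild type replicate 1 and without mutant replicate 1.

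Genes of the hair matrix and shaft were less uniform. Of 22, 13 passed the filter, 4 rose and 2 fell, with 1 to 3 rises in fits without 1 library, the lowest number without mutant replicate 1. Of the 13, 3 reached 1 FPKM only in mutant cells. *Krt35*, a hair keratin of the precortex, stood at 2.75 and 0.17 FPKM in wild type and 24.68 and 20.79 FPKM in mutant cells (3.5 ± 0.66, adjusted p = 0.00742). *Krt32*, another hair keratin, went the other way, from 21.87 and 22.20 FPKM to 8.64 and 7.47 FPKM (-1.35 ± 0.19). *Lef1*, the WNT effector that marks the matrix, stood at 4.08 and 1.70 FPKM against 10.05 and 3.79 FPKM and was not called (adjusted p = 0.214). Of 21 epidermal differentiation genes, 17 passed the filter, 3 rose and 3 fell. *Sprr1b*, for a cross-linked envelope protein, stood at 3.14 and 3.47 FPKM against 44.42 and 36.47 FPKM (3.26 ± 0.19, adjusted p = 7.86e-05), and *Klk7*, for a protease that sheds cornified cells, at 4.34 and 3.64 FPKM against 69.11 and 22.79 FPKM (3.04 ± 0.42). *Calml3*, for a calmodulin-like protein, fell from 161.68 and 268.57 FPKM to 16.79 and 18.20 FPKM (-3.5 ± 0.32). *Dmkn*, for the secreted protein dermokine, fell by 2.25 from 2227 and 3212 FPKM to 692.47 and 454.05 FPKM. Without wild type replicate 2 the falls in this list numbered 7.

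**Figure D2:**
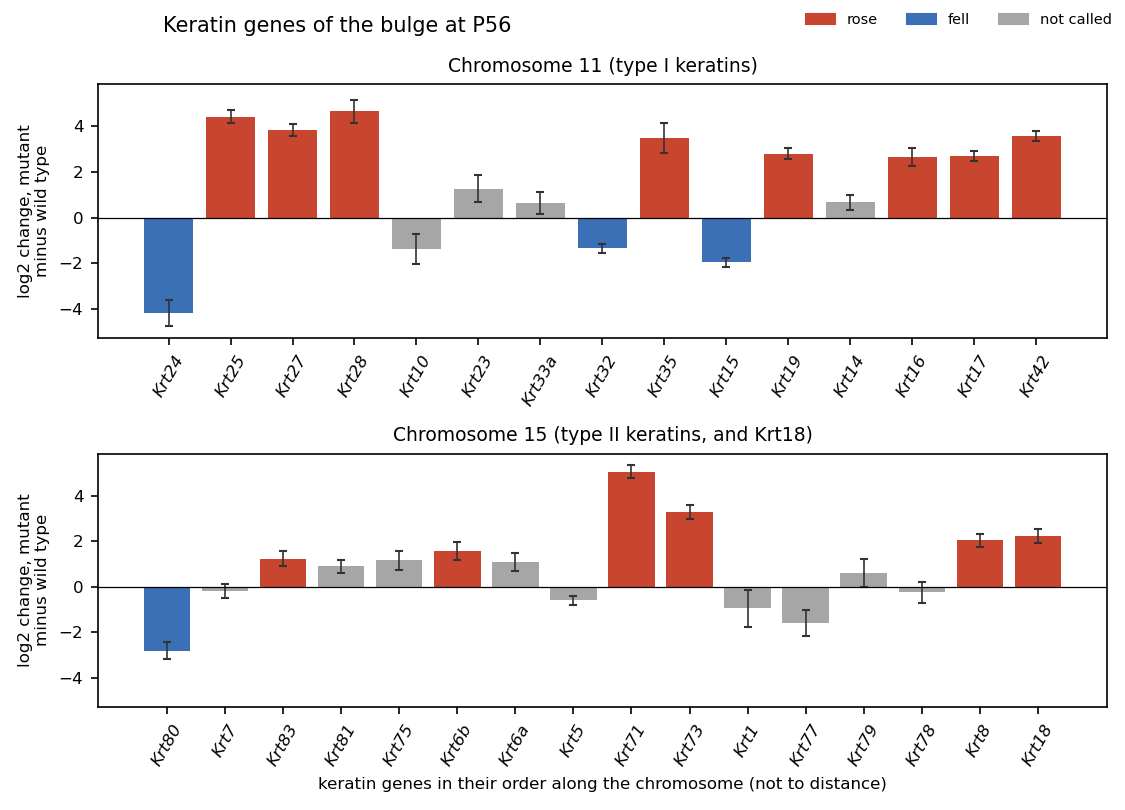
Log2 change at P56 (mutant minus wild type, bars, with SE) of 31 keratin genes in their order along chromosomes 11 and 15, red where called higher, blue where called lower and grey where not called. *Krt24*, at -4.21, stands beside *Krt25*, *Krt27* and *Krt28* at 3.83 to 4.66.

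Connexins form the gap junctions that pass small molecules between neighbouring cells. Of 13 gap junction genes 7 passed the filter, and 3 rose (4 without wild type replicate 1) and 1 fell (2 without mutant replicate 1). *Gja1*, for the connexin Cx43 (chromosome 10, 56377330 to 56402513), stood at 136.63 and 48.95 FPKM in wild type and at 1306 and 2232 FPKM in mutant cells (4.37 ± 0.42, adjusted p = 0.000274). *Gjb6*, for Cx30, stood at 5.83 and 1.49 FPKM against 79.11 and 136.66 FPKM (4.67 ± 0.46, adjusted p = 0.000315). It lies next to *Gjb2* on chromosome 14, the gene with the largest rise of all (6.54 ± 0.83). *Gjb5*, for another connexin of the skin, went the other way, from 45.63 and 36.30 FPKM to 12.55 and 7.75 FPKM (-1.94 ± 0.29). The P30 libraries held *Gja1* at 2287 and 2201 FPKM in wild type and 1640 and 1670 FPKM in mutant cells, and the difference of the nevus effect between the ages was 4.80 ± 0.59 (adjusted p = 0.00227).

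Genes of the anchorage to the basement membrane moved both ways. Of 31, 26 passed the filter, 8 rose and 7 fell, against 5.94% and 6.47% of all genes. The falls included genes of the hemidesmosome and of the bulge matrix. *Col17a1*, for the transmembrane collagen of hemidesmosomes, stood at 674.99 and 785.81 FPKM in wild type and 154.98 and 260.97 FPKM in mutant cells (-1.85 ± 0.23, adjusted p = 0.000954). *Lamb3*, a chain of the laminin that hemidesmosomes bind, stood at 246.80 and 364.67 FPKM against 63.49 and 57.71 FPKM (-2.29 ± 0.21, adjusted p = 0.000249). *Npnt*, for nephronectin, which anchors the arrector pili muscle at the bulge, stood at 63.13 and 104.80 FPKM against 20 and 23.32 FPKM (-1.87 ± 0.25). *Egfl6*, of the same bulge matrix, fell by 2.59. The rises included chains of the general basement membrane. *Lamb1*, a chain of more widespread laminins, stood at 7.51 and 3.64 FPKM against 37.60 and 55.39 FPKM (2.89 ± 0.29, adjusted p = 0.000346). *Col4a1* and *Col4a2*, the paired chains of collagen IV, rose by 2.20 and 1.59, *Col4a1* from 12.18 and 8.31 FPKM to 39.57 and 62.65 FPKM. *Fras1*, for an extracellular protein of the epithelial basement membrane, rose by 1.77. Among 25 desmosome, cadherin and claudin genes, 21 passed the filter, 3 rose (1 without mutant replicate 2) and 1 fell, the fall being *Cdh13*, for a cadherin held by a lipid anchor (165.89 and 191.41 FPKM against 11.72 and 8.98 FPKM, -3.99 ± 0.28).

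The list of secreted BMP and TGF-beta antagonists and latent-binding proteins had the lowest median of the signalling lists described here. Of 16, 13 passed the filter, 7 fell and 1 rose, with a median log2 change of -1.13. *Nog*, for noggin (chromosome 11, 89300638 to 89302332), stood at 11.68 and 18.78 FPKM in wild type and at 0.27 and 0.69 FPKM in mutant cells (-3.43 ± 0.27, adjusted p = 0.000135). It reached 1 FPKM only in wild type cells, so its direction was fixed by the filter. *Ltbp2*, for a fibrillin-binding protein of the matrix that, unlike its relatives, is not known to bind latent TGF-beta, stood at 16.77 and 32.27 FPKM against 1.74 and 1.96 FPKM (-3.09 ± 0.32). *Sostdc1*, for a protein that blocks both BMP and WNT, stood at 416.30 and 703.97 FPKM against 157.48 and 115.95 FPKM (-1.99 ± 0.26). *Grem1*, for gremlin, fell by 3.65, and *Nbl1* and *Fst*, for a gremlin relative and for follistatin, fell by 1.68 and 1.49. No mutant library reached a wild type library in any of them, as in 32.8% of all genes tested. The 7 falls were 7 or 8 in each fit without 1 P56 library, while the rises were 0 without wild type replicate 1 or mutant replicate 2 and 3 without mutant replicate 1. In the list of BMP and TGF-beta ligands, which also holds the protease gene *Bmp1*, 4 of 12 rose and 1 fell. The rise of *Tgfb1*, 1 of the 4, was lost without wild type replicate 1, without wild type replicate 2 and without mutant replicate 1. *Bmp2*, a ligand that holds bulge cells at rest, fell from 16.75 and 25.61 FPKM to 4.30 and 3.64 FPKM (-2.13 ± 0.27, adjusted p = 0.00095). *Inhba*, for the activin A subunit, rose from 0.17 and 0.10 FPKM to 8.62 and 4.67 FPKM (2.70 ± 0.32, adjusted p = 0.00073), and *Inhbb*, for the activin B subunit, from 7.15 and 5.41 FPKM to 19.87 and 38.36 FPKM (1.99 ± 0.31). *Inhba* reached 1 FPKM only in mutant cells. *Bmp1*, for a protease that processes procollagen and frees BMP from its antagonists, rose by 1.84. Of 15 receptors and SMADs none passed with limma, and 4 were lower at an unadjusted p under 0.05. Among all 12034 genes tested, 4051 were under that p in either direction, so such a p is common here. The most abundant receptors and SMADs were *Smad1*, at 24.91 and 30.41 FPKM against 20.89 and 23.01 FPKM, and *Bmpr1a*, at 16 and 17.27 FPKM against 24.29 and 20.47 FPKM. Of 12 target genes, 4 fell and 1 rose. The rise was *Id4*, from 50.32 and 70.05 FPKM to 127.21 and 156.77 FPKM (1.24 ± 0.20), while *Id2*, its relative, fell from 314.13 and 489.74 FPKM to 113.33 and 125.52 FPKM (-1.71 ± 0.21).

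WNT genes moved in both directions. Of 28 receptors and transducers, 25 passed the filter, 5 rose and 5 fell, the falls being 3 without wild type replicate 2 or without mutant replicate 1. *Porcn*, for the enzyme that attaches the lipid WNT proteins need for secretion, stood at 17.81 and 15.86 FPKM in wild type and 65.60 and 71.41 FPKM in mutant cells (1.96 ± 0.17, adjusted p = 0.000179). *Fzd4*, a receptor gene, stood at 0.94 and 1.85 FPKM against 7.14 and 8.47 FPKM (1.90 ± 0.24), and *Ror2*, a co-receptor gene, at 3.93 and 4.81 FPKM against 14.81 and 13.68 FPKM (1.51 ± 0.21). *Fzd9*, another receptor gene, fell from 2.48 and 4.51 FPKM to 0.22 and 0.59 FPKM (-1.65 ± 0.30). *Lgr5*, the R-spondin receptor gene of bulge and hair germ, stood at 74.40 and 78.14 FPKM against 62.06 and 85.76 FPKM, with overlapping groups and a log2 change of -0.06. Of 9 WNT antagonists that passed the filter 3 fell, among them *Dkk3*, from 145.93 and 273.90 FPKM to 36.03 and 64.37 FPKM (-2.03 ± 0.33). Of 11 WNT target genes 1 rose and 3 fell. *Ccnd1*, for cyclin D1, rose from 41.26 and 34.92 FPKM to 90.99 and 101.68 FPKM (1.32 ± 0.16, adjusted p = 0.000965), and *Nkd1*, a feedback inhibitor, fell from 5.71 and 8.44 FPKM to 1.19 and 0.63 FPKM (-2.07 ± 0.26). The falls of the targets *Axin2* and *Myc* were lost without wild type replicate 1 and without mutant replicate 2, which left 1 fall in each case. Of the ligands only *Wnt9a* was called in all of those fits, at 1.30 and 0.63 FPKM against 4.12 and 5.88 FPKM (1.62 ± 0.26), while the falls of *Wnt4* and *Wnt7b* were lost without wild type replicate 1 and without mutant replicate 2.

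Of 12 FGF ligand genes 4 passed the filter, and all 4 were called, 2 in each direction. *Fgf5*, known for ending hair growth, and *Fgf21* rose, the latter from 0.97 and 0.71 FPKM to 4.15 and 7.94 FPKM (1.89 ± 0.32). Both reached 1 FPKM only in mutant cells. *Fgf18*, a ligand of the inner bulge that prolongs rest, stood at 40.50 and 87.62 FPKM against 6.53 and 2.11 FPKM (-3.65 ± 0.45). *Fgf1* stood at 6.80 and 25.70 FPKM against 1.38 and 1.99 FPKM (-2.44 ± 0.51), and its call was lost without mutant replicate 1. *Dusp6*, for a phosphatase that ERK signalling induces and that damps it, stood at 92.21 and 46.44 FPKM against 299.77 and 180.54 FPKM (1.81 ± 0.32, adjusted p = 0.00542). In the Hedgehog pathway 2 of 11 genes fell, both of them co-receptors of the ligand, and 2 rose without wild type replicate 1. Of the Hedgehog genes tested 18.2% were called in either direction, against 12.4% of all genes. *Cdon* stood at 11.33 and 17.99 FPKM against 0.65 and 2.02 FPKM (-2.78 ± 0.37) and *Boc* at 50.50 and 73.53 FPKM against 14.77 and 20.34 FPKM (-1.76 ± 0.23). The target *Gli1* stood at 9.79 and 4.91 FPKM against 10.83 and 8.70 FPKM and was not called. In the IGF pathway the binding proteins parted. *Igfbp2* fell from 14.28 and 21.69 FPKM to 2.93 and 1.55 FPKM (-2.56 ± 0.36) and *Igfbp6* from 57.55 and 99.64 FPKM to 11.48 and 21.40 FPKM (-2.20 ± 0.32), while *Igfbp4* stood at 109.99 and 78.58 FPKM against 188.78 and 426.87 FPKM (log2 change 1.60), a call lost without wild type replicate 2.

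Of the JAK-STAT genes tested 16.7% were called in either direction, and of the Notch genes 21.4%, against 12.4% of all genes. In the JAK-STAT pathway 3 of 24 genes fell, a number that was 7 without wild type replicate 2. *Lifr*, a receptor chain for leukaemia inhibitory factor, fell from 25.51 and 25.00 FPKM in wild type to 11.34 and 5.39 FPKM in mutant cells (-1.56 ± 0.30, adjusted p = 0.00736). In the Notch pathway 2 of 14 rose and 1 fell. *Rbpj*, for the DNA-binding partner of Notch, fell from 15.68 and 14.66 FPKM to 6.19 and 5.32 FPKM (-1.26 ± 0.19), and the target *Nrarp* rose from 26.93 and 21.47 FPKM to 75.85 and 52.63 FPKM (1.36 ± 0.23). *Nrg1*, a ligand of the ERBB receptors, was the 1 call among 11 EGF family genes (9.1%, below the share of all genes), from 1.34 and 0.22 FPKM to 3.85 and 5.31 FPKM (1.71 ± 0.33). Of 7 genes for osteopontin and its receptors 1 was called (14.3%, close to the share of all genes). This was *Spp1*, the gene for osteopontin itself (4.56 ± 0.74), with 67.69 and 17.34 FPKM in mutant and 1.05 and 0.10 FPKM in wild type cells. *Cd44*, the receptor gene, stood at 68.79 and 52.25 FPKM against 101.41 and 92.63 FPKM, a change of 0.68 that stayed under the 2-fold threshold.

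**Figure D3:**
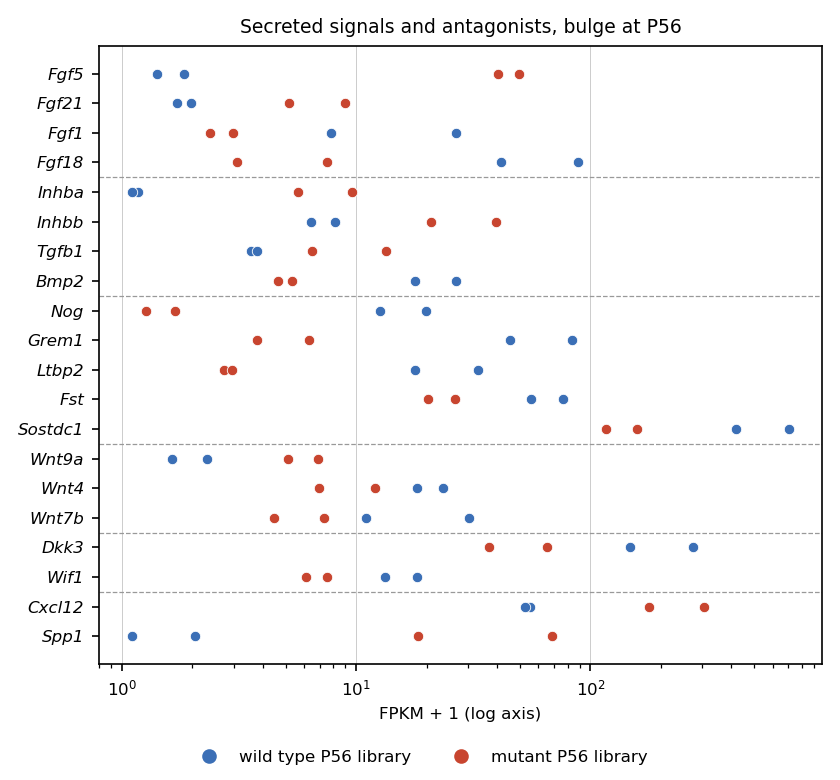
Level of 20 genes of secreted signals and antagonists at P56 (FPKM + 1, log axis), 1 point per library, blue wild type and red mutant, with dashed lines between FGF ligands, BMP and activin ligands, BMP antagonists, WNT ligands, WNT antagonists and other signals. The mutant libraries hold *Nog* at 0.27 and 0.69 FPKM, against 11.68 and 18.78 FPKM in wild type cells.

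Of 22 bulge stem cell markers, some of which belong to other lists too, 11 fell and 1 rose, with a median of -0.99. Markers of the infundibulum, isthmus and sebaceous gland and of the inner bulge also fell in 5 of 8 and 3 of 6 cases, as given above. In each of these lists 2 markers had a positive change, and no rise was called. The part of these layers in this result was not tested. *Postn*, for the matrix protein periostin, stood at 681.31 and 941.93 FPKM in wild type and at 108.34 and 183.84 FPKM in mutant cells (-2.50 ± 0.27, adjusted p = 0.000434). *Vdr*, for the vitamin D receptor, which follicles need to start a new cycle, rose from 109.69 and 105.31 FPKM to 253.32 and 317.05 FPKM (1.39 ± 0.18, adjusted p = 0.00107). Not all markers moved, as *Sox9*, a gene for a transcription factor of bulge identity, stood at 184.16 and 295.70 FPKM against 235.34 and 194.91 FPKM, with overlapping groups and a log2 change of -0.12. Of 27 stem cell transcription factors 5 rose and 5 fell. *Sox4* stood at 11.45 and 6.72 FPKM against 60.59 and 39.67 FPKM (2.35 ± 0.27, adjusted p = 0.000678), and *Sox13*, of another SOX subfamily, at 2.82 and 2.28 FPKM against 23.46 and 18.53 FPKM (2.63 ± 0.24). *Hopx*, for a homeodomain protein of quiescent bulge cells, fell from 97.43 and 111.42 FPKM to 32.13 and 23.50 FPKM (-1.88 ± 0.21), and *Gata6*, a factor gene of the upper follicle, from 11.22 and 5.66 FPKM to 1.85 and 0.23 FPKM (-2.27 ± 0.43). Of 9 quiescence genes that the study chose on these libraries, so that they are no independent evidence of a direction, all 9 fell, 7 to 9 of them in the fits without 1 P56 library, where the lower number came without wild type replicate 1.

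Genes of cell division were higher in mutant cells, but how many passed depended on single libraries and on the fit. All 35 mitosis genes had a positive log2 change, with a median of 1.39, and 12 were called. The number was 33 without wild type replicate 1, 0 without wild type replicate 2, 1 without mutant replicate 1 and 17 without mutant replicate 2. It was 20 with values rescaled by median ratio and 0 with the 4 P56 libraries alone. Their summed level was 429.88 FPKM in wild type replicate 1, 147.43 FPKM in wild type replicate 2, 973.32 FPKM in mutant replicate 1 and 540.64 FPKM in mutant replicate 2, so the groups did not overlap, yet the 2 libraries of each group stood well apart. *Mki67*, the marker of cycling cells, stood at 5.73 and 2.27 FPKM against 11.93 and 8.24 FPKM (1.22 ± 0.34, adjusted p = 0.0372), a call kept only without wild type replicate 1. Of 21 DNA synthesis genes 6 rose, and 3 to 11 in fits without 1 library, highest without mutant replicate 2 and lowest without wild type replicate 2 or mutant replicate 1. *Tk1*, for thymidine kinase, stood at 24.30 and 12.05 FPKM against 84.84 and 47.57 FPKM (1.83 ± 0.36, adjusted p = 0.00883). Of 28 cyclin, E2F and replication licensing genes 8 rose, and 2 to 13 in those fits, lowest without mutant replicate 1 and highest without mutant replicate 2. Of 19 CDK inhibitors and antiproliferative genes 1 rose (3 without wild type replicate 1) and 2 fell (4 without mutant replicate 1, 1 without mutant replicate 2). Of this list 15.8% was called in either direction, close to the 12.4% of all genes. *Cdkn2b*, for the CDK4 inhibitor p15, rose from 6.55 and 7.29 FPKM to 49.84 and 28.33 FPKM (2.29 ± 0.26, adjusted p = 0.000616), and *Tob1*, for an antiproliferative protein, fell from 108.07 and 102.24 FPKM to 45.17 and 32.39 FPKM (-1.43 ± 0.19). *Cdkn2a*, the neighbour of *Cdkn2b*, was at the floor of 0.1 FPKM in 3 of the 4 libraries and at 0.29 FPKM in mutant replicate 1.

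Of 19 circadian clock genes, which set daily rhythms of transcription in most cells, 9 fell and 1 rose. *Rora*, an activator in the loop that drives *Arntl*, stood at 55.15 and 39.84 FPKM in wild type and at 15.79 and 8.64 FPKM in mutant cells (-1.91 ± 0.28, adjusted p = 0.00206). *Arntl*, for the central activator BMAL1, stood at 29.58 and 31.19 FPKM against 12.42 and 13.89 FPKM (-1.15 ± 0.19, adjusted p = 0.00411). *Nr1d1*, a repressor of *Arntl*, fell by 2.84 and *Npas2*, a partner of BMAL1, by 2.38. The riser was *Bhlhe41*, for a repressor, from 4.32 and 3.52 FPKM to 11.47 and 16.40 FPKM (1.59 ± 0.23). *Per1*, a feedback repressor gene, stood at 17.28 and 16.67 FPKM against 15.55 and 9.68 FPKM and was not called. The letters CACGTG read the same on both strands and form the core of the element that BMAL1 binds. They were searched in the 250 bases before each RefSeq start, and not outside them. They occurred in 2 of 10 promoters of fallers, both of *Tef* (not called without mutant replicate 2). They also occurred in the 1 promoter of the riser and in 3 of 10 promoters of genes not called, against 6.02% of 32851 promoters. By gene these were 1 of 8 fallers, the riser and 3 of 7 genes not called. The time of day at which the skin was taken is not given, so a shift of phase and a lower level cannot be told apart.

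Genes that handle amino acids, glutathione, fatty acids and retinoids changed in defined pieces. Of 26 amino acid transport and synthesis genes, 22 passed the filter and 6 rose. *Slc7a1*, for the arginine and lysine transporter, stood at 7.92 and 3.43 FPKM in wild type and at 62.76 and 70.21 FPKM in mutant cells (3.42 ± 0.33, adjusted p = 0.000297). *Slc1a3*, for a glutamate transporter, stood at 5.67 and 2 FPKM against 29.37 and 53.84 FPKM (3.19 ± 0.42). *Slc7a11*, for the cystine transporter that feeds glutathione synthesis, stood at 0.42 and 0.11 FPKM against 5.21 and 5.69 FPKM (2.36 ± 0.24). Its partner chain *Slc3a2*, shared with *Slc7a8*, stood at 266.53 and 235.21 FPKM against 748.93 and 1172 FPKM (1.90 ± 0.21), and is named for that pairing. Of 34 glutathione and xenobiotic genes, 31 passed the filter, 8 rose and 2 fell. *Gclc*, for the catalytic chain of the enzyme that starts glutathione synthesis, stood at 10.37 and 10.71 FPKM against 42.27 and 55.21 FPKM (2.10 ± 0.24, adjusted p = 0.000569), and *Gsr*, for glutathione reductase, at 14.64 and 7.17 FPKM against 47.31 and 62.78 FPKM (2.30 ± 0.33). *Gpx2*, for a glutathione peroxidase, was uneven in the mutant, at 199.42 FPKM in replicate 1 and 60.81 FPKM in replicate 2, against 4.75 and 12.45 FPKM (3.66 ± 0.53). The falls were *Aldh3a1*, for an aldehyde dehydrogenase (175.15 and 92.89 FPKM against 16.45 and 13.55 FPKM, -3.01 ± 0.28), and *Cyp2g1*, for a cytochrome P450 (21.53 and 38.90 FPKM against 0.10 and 0.19 FPKM, -4.71 ± 0.28).

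Retinoid genes gave 7 rises and 2 falls among 16 that passed the filter of 19. Of the 16, 3 reached 1 FPKM only in mutant cells, among them *Lrat* and *Dhrs9*, and 1 only in wild type cells, *Cyp26b1*. *Lrat*, whose enzyme stores retinol as esters, stood at 0.60 and 0.10 FPKM in wild type and at 12.48 and 7.98 FPKM in mutant cells (3.05 ± 0.29, adjusted p = 0.000287). *Dhrs9*, for a retinol dehydrogenase, stood at 0.40 and 0.54 FPKM against 5.39 and 18.56 FPKM (2.93 ± 0.46). *Cyp26b1*, whose enzyme breaks down retinoic acid, fell from 7.2 and 7.12 FPKM to 0.95 and 0.42 FPKM (-2.29 ± 0.23, adjusted p = 0.000333). The rises in this list numbered 4 without wild type replicate 2 and 4 without mutant replicate 1. Of 26 fatty acid and lipid genes that passed the filter, 4 rose (2 without mutant replicate 2) and 5 fell (8 without wild type replicate 1). *Fabp5*, for the epidermal fatty acid-binding protein, stood at 110.58 and 211.03 FPKM against 1502 and 915.29 FPKM (2.93 ± 0.31, adjusted p = 0.000417), and *Scd2*, for a desaturase, at 9.09 and 1.69 FPKM against 53.96 and 26.62 FPKM (2.90 ± 0.54). *Pparg*, for the lipid-sensing receptor, fell from 2.52 and 5.91 FPKM to 0.55 and 0.25 FPKM (-1.83 ± 0.32) and *Dgat2*, for the last enzyme of triglyceride synthesis, from 25.75 and 37.33 FPKM to 11.89 and 7.63 FPKM (-1.60 ± 0.25). Of 19 glycolysis genes 2 fell (10.5%), *Hk1* (-1.54) and *Aldoc* (-1.36). Of 22 cholesterol synthesis genes 1 was called (4.5%), *Sc5d*, a call lost without wild type replicate 2 and without mutant replicate 1. Both shares are below the 12.4% of all genes. None of 27 oxidative phosphorylation genes and none of 33 cytosolic ribosomal protein genes was called with limma, with medians of 0.27 and -0.01. At an unadjusted p under 0.05 these numbers were 8, all higher, and 1, also higher. Among all 12034 genes tested, 4051 were under that p in either direction, so such a p is common here.

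Immune and stress lists differed in their share of calls. An unadjusted p under 0.05 with limma, given below for 1 list, was reached by 4051 of all 12034 genes tested in either direction. Of 13 interferon response genes that passed the filter of 21, 6 rose, and 4 to 10 in fits without 1 library, lowest without wild type replicate 2 and highest without mutant replicate 1. Of the 13, 2 reached 1 FPKM only in mutant cells. *Irf7* stood at 5.45 and 4.07 FPKM in wild type and 18.20 and 49.67 FPKM in mutant cells (2.45 ± 0.41), and *Isg15* at 1.09 and 0.30 FPKM against 4.59 FPKM in mutant replicate 1 and 49.26 FPKM in replicate 2. *Cxcl9*, a chemokine gene of this response, rose by 2.14. Of 15 antigen presentation genes none was called by limma and 5 were higher at an unadjusted p under 0.05, whereas 7 rose without wild type replicate 1 and 6 fell without wild type replicate 2, the libraries that differed in *Cd74*. Among chemokines and cytokines *Cxcl12*, a chemokine gene of stromal and basal cells, stood at 54.38 and 51.81 FPKM against 177.58 and 304.82 FPKM (2.11 ± 0.24, adjusted p = 0.000565). *Ccl27a*, the skin chemokine gene, fell from 6668 and 5326 FPKM to 1453 and 1501 FPKM (-2.01 ± 0.15), but near copies of it in the genome make its level uncertain. Of 24 immediate-early and heat shock genes 6 fell, 3 of them without mutant replicate 2. *Klf2* stood at 48.32 and 26.23 FPKM against 8.72 and 3.67 FPKM (-2.44 ± 0.37), *Klf4*, a factor gene of epidermal differentiation, at 153.91 and 132.76 FPKM against 42.77 and 21.93 FPKM (-2.18 ± 0.27), and *Fosb*, of the AP-1 family, at 417.39 and 266.57 FPKM against 79.62 and 57.19 FPKM (-2.29 ± 0.23). *Fos*, an immediate-early gene that tissue dissociation is known to induce, stood at 7566 and 4263 FPKM against 3805 and 3600 FPKM and was not called.

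Of 22 matrix proteases and inhibitors that passed the filter of 24, 7 rose, with 4 to 12 rises without 1 library, lowest without mutant replicate 1 and highest without wild type replicate 1. Of the 22, 5 reached 1 FPKM only in mutant cells. *Timp3*, for an inhibitor bound to the matrix, stood at 34.46 and 27.28 FPKM in wild type and 284.21 and 446.50 FPKM in mutant cells (3.5 ± 0.22, adjusted p = 8.3e-05). *Timp1*, for its soluble relative, stood at 0.39 and 0.28 FPKM against 13.59 and 11.85 FPKM (3.36 ± 0.43), and *Serpine2*, for an inhibitor of serine proteases, at 0.19 and 0.92 FPKM against 8.04 and 5.85 FPKM (2.38 ± 0.36). Fibroblast markers rose beside them, as given above. Of 39 semaphorin, ephrin and guidance genes, 34 passed the filter, 6 rose and 4 fell. *Ntn4*, a netrin gene of basement membranes, stood at 1.09 and 0.67 FPKM against 7.44 and 11.51 FPKM (2.46 ± 0.26), *Ntn1* at 0.13 and 0.10 FPKM against 5.01 and 2.56 FPKM (2.05 ± 0.27) and *Sema6a* at 1.89 and 2.42 FPKM against 19.95 and 10.05 FPKM (2.27 ± 0.30). The falls were led by *Plxna2*, a semaphorin receptor gene, from 31.20 and 55.94 FPKM to 11.30 and 7.18 FPKM (-2.09 ± 0.31), and *Sema3c*, for a secreted semaphorin, from 79.03 and 66.35 FPKM to 16.62 and 20.63 FPKM (-1.91 ± 0.19). Of 13 S100 genes, 1 rose, *S100b* (2.24), and 3 fell, among them *S100a10*, from 1282 and 1433 FPKM to 568.33 and 500.78 FPKM (-1.34 ± 0.15).

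**Figure D4:**
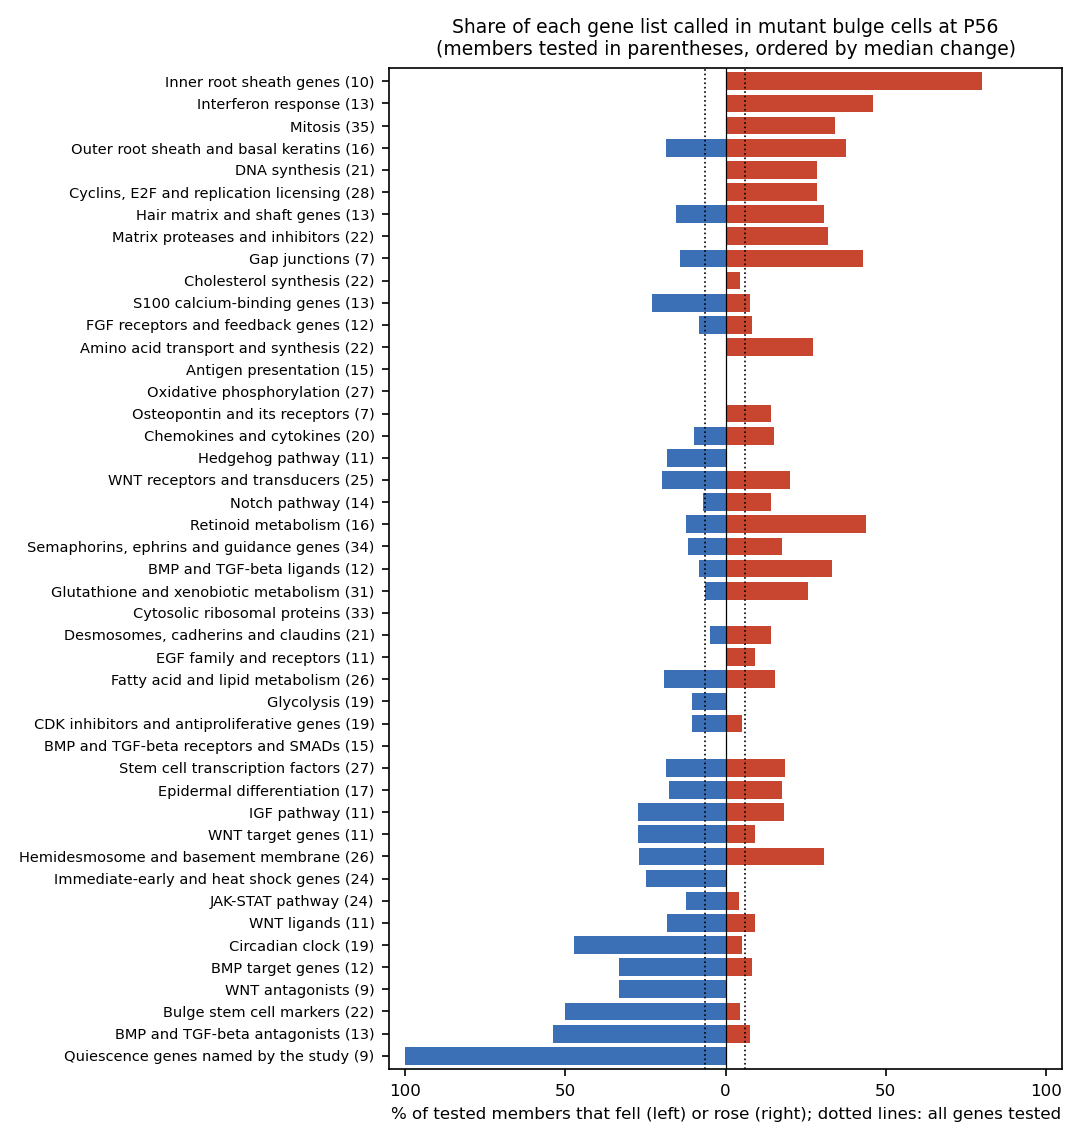
Share of the tested members of each gene list that was called lower (blue, to the left) or higher (red, to the right) in mutant bulge cells at P56, for lists other than cell type markers with 7 or more tested members (number in parentheses), ordered by median change. Dotted lines mark the shares over all 12034 genes tested, 5.94% higher and 6.47% lower. The share called higher is largest in the inner root sheath list, 8 of 10.

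The bulge libraries at P30 show the nevus effect at an age when wild type follicles grow. At P30, 77 of the same 12034 genes were called, 63 with a rise and 14 with a fall. The nevus effects at the 2 ages share no library, so their difference was tested. It passed the test in 977 genes (8.12%), 500 (4.15%) with a more positive and 477 (3.96%) with a more negative effect at P56. That number depended on the P30 libraries, since 366 genes passed when the first and 372 when the second wild type P30 library was left out, and 591 and 497 when the first and the second mutant P30 library was. Of the 1493 genes called at P56, 794 passed it in the direction of their P56 change. Among the 30 largest changes 27 did, 23 of them in each of the 8 fits without 1 library, and *Acta2*, *Spp1* and *Krt24* did not. Among list members called at P56, 130 of 235 passed in the same direction and 2, *Mmp9* (not called at P56 without mutant replicate 1) and *Mmp13*, in the opposite one. For the BMP antagonist *Nog* the P30 libraries stood at 0.65 and 0.43 FPKM in wild type and 0.64 and 0.71 FPKM in mutant cells, beside 0.27 and 0.69 FPKM in mutant cells at P56. The difference of the effects was -3.56 (adjusted p = 0.00162). The P56 direction of *Nog* was fixed by the filter, as given above.

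A group of 32 genes was called in the same direction at both ages, 27 higher and 5 lower in the mutant. These were named after their values were seen. Of the 32, 8 kept both calls in every fit without 1 library of the age concerned, *Col1a1*, *Col3a1*, *Krt42*, *Mfap4*, *Mfap5*, *Mmp13*, *Spp1* and *Sprr1b*. *Krt42*, a type I keratin gene, stood at 1.61 and 1.43 FPKM in wild type and 28.19 and 29.46 FPKM in mutant cells at P56 (3.57 ± 0.21), and at 7.34 and 7.6 FPKM against 51.00 and 35.73 FPKM at P30 (2.37). *Ahcy*, for the enzyme that clears S-adenosylhomocysteine, stood at 1.85 and 1.19 FPKM against 36.14 and 66.90 FPKM at P56 (4.33 ± 0.29) and at 5.97 and 6.30 FPKM against 51.18 and 41.91 FPKM at P30 (2.73), where its call was kept in 1 of 4 fits. *Serpinf1*, for a secreted serpin, stood at 1.79 and 3.85 FPKM against 21.59 and 31.35 FPKM at P56 (2.88 ± 0.34) and at 11.76 and 9.37 FPKM against 49.58 and 82.09 FPKM at P30. *Inhba* was higher in the mutant by 2.70 at P56 and 2.54 at P30, and the effects differed by 0.16 (adjusted p = 0.874). *Col1a1*, a fibroblast collagen gene, was higher in the mutant by 2.18 at P56 and 4.21 at P30, a difference of -2.03 (adjusted p = 0.0373), a call kept in 1 of the 4 fits without 1 P30 library and 1 of the 4 without 1 P56 library. The lower genes included *Ackr4*, for a receptor that scavenges chemokines, at 29.06 and 29.52 FPKM against 3.27 and 3.17 FPKM at P56 (-2.84 ± 0.20) and at 5.93 and 7.25 FPKM against 2.03 and 2.51 FPKM at P30 (-1.21). *Pdk4*, for a kinase that shuts pyruvate out of oxidation, fell by 1.99 at P56 and by 1.46 at P30. The P30 calls of *Ackr4*, *Pdk4*, *Serpinf1* and *Inhba* were each lost in all 4 fits without 1 P30 library.

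A further 12 genes were called in opposite directions at the 2 ages, and in all 12 the difference passed the test in each of the 8 fits without 1 library. The collagen VI genes *Col6a1* and *Col6a2*, which lie near each other on chromosome 10 (76708792 to 76726168 and 76595762 to 76623630), were the clearest. *Col6a1* stood at 96.30 and 129.02 FPKM in wild type and 11.42 and 10.45 FPKM in mutant cells at P56 (-3.24 ± 0.27, adjusted p = 0.000147). At P30 it stood at 1.90 and 2.10 FPKM in wild type and 19.89 and 34.30 FPKM in mutant cells (3.18, adjusted p = 0.00211). *Col6a2* stood at 41.30 and 49.97 FPKM against 7.45 and 6.90 FPKM at P56 and at 1.81 and 1.58 FPKM against 21.08 and 40.83 FPKM at P30. The mutant libraries of both ages thus lay between the 2 wild type groups. *Col6a3*, the gene of the third chain, rose at both ages, by 1.59 at P56 and 3.68 at P30, a P56 call lost without wild type replicate 2 and without mutant replicate 1. At P56, 6 of the 7 tested fibroblast markers rose (4 without mutant replicate 1) while *Col6a1* and *Col6a2* fell. *Sprr4*, for an envelope protein, went the other way, from the floor of 0.1 FPKM in both wild type libraries to 26.60 and 15.70 FPKM at P56, and from 29.97 and 40.44 FPKM to 9.99 and 5.03 FPKM at P30, a P30 call lost in all 4 fits without 1 P30 library.

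**Figure D5:**
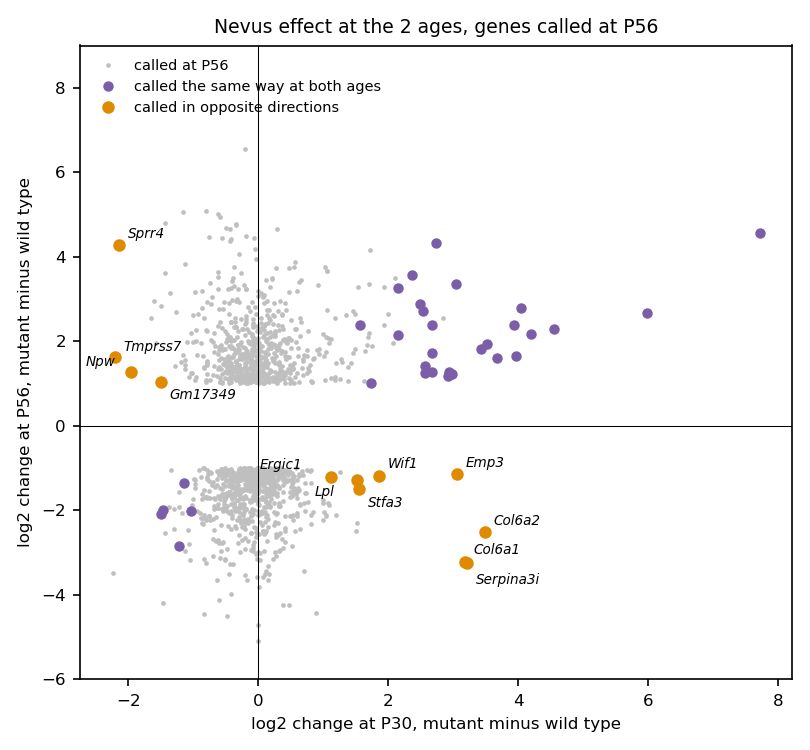
Log2 change, mutant minus wild type, at P30 (horizontal axis) and P56 (vertical axis) for the 1493 genes called at P56 (grey), with the 32 called in the same direction at both ages in purple and the 12 called in opposite directions in orange and named. *Col6a1* stands at 3.18 at P30 and -3.24 at P56.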

How the data were processed

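Skin was dissociated and bulge cells were sorted by the authors, who made full-length cDNA libraries (Smart-seq2) and sequenced them in pairs of reads. Per the submitters' processing notes and the study's methods, reads were aligned with STAR 2.4.2 to GRCm38 (mm10) and RSEM gave FPKM per GENCODE gene. The deposited table holds FPKM of 8 bulge libraries with a lowest value of 0.1. The origin of that floor is not given in the sources read. Read counts were not used here. The study states a range of average read depth but no total per library, so the counting error of each value is not known and the count model of the study was not run. Gene symbols that appeared as calendar dates (23) were restored from their identifiers.

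Protein-coding genes with 1 FPKM or more in at least 2 of the 4 P56 libraries were kept and log2(FPKM + 1) was fitted with limma 3.58.1 (R 4.3.3), with a mean for each of 4 groups over 8 libraries and a variance trend. Contrasts were mutant minus wild type at P56, the same at P30, and their difference. All tests were two-sided with Benjamini-Hochberg adjustment over all genes, and a gene was called at an adjusted p under 0.05 and a change of 2-fold or more. Changes are printed as the log2 estimate ± its standard error, and single values are FPKM of replicate 1 and then replicate 2. The procedure was tested on simulated data.

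The members and gene lists were chosen with earlier results of these data known. Named are the 15 largest rises and falls with no overlap of libraries and, in the group with the higher level, a mean of at least 5 FPKM, up to 4 called members of a list in each direction or the most abundant where none was called, and *Nras*, *Spp1*, *Cd44*, *Cd34*, *Cdh3*, *Itga6*, *Nfatc1*, *Mki67*, *Cdkn2b* and *Fgf5*. Other genes, among them those called at both ages and list members that were not called, were picked out once their values had been seen. The alternatives were other pseudocounts, FPKM filters, gene types and scalings, no variance trend, a replicate block, the 4 P56 libraries alone, and each library left out in turn, the P30 ones added after seeing the data. Some results are not reported here.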

Additional observations from a re-analysis of the deposited data

Results flagged for a closer look

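In the 8 bulge libraries, limma's test of the difference between the nevus effects at P56 and P30 passed in 977 genes (8.12% of those tested). Values below are that difference on the log2 scale, P56 minus P30, for the named genes that passed, whose lists and names were chosen with earlier results known. With 2 libraries a group, single libraries could not be tested as outliers.

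The difference was positive, with a more positive nevus effect at P56 than at P30, for the connexin gene *Gjb2* (6.75), the signal gene *Fgf5* (6.22), and the inner root sheath keratins *Krt71* (6.21) and *Krt28* (5.09). The difference was 5.88 for *Rnase12*, 5.65 for *Cmah*, 5.54 for *Slc7a8*, 5.23 for *Csn3*, 5.16 for *Gjb6*, 5.12 for *Ggt1*, 5.09 for *Anxa3*, 5.01 for *Fndc1*, 4.68 for *Cnn3*, 1.71 for *Cdkn2b* and 1.59 for *Cdh3*. Those of *Cdkn2b* and *Cdh3* were lost in each fit without 1 P30 library, and that of *Gjb2* in 2 of those 4.

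It was negative for genes that fell at P56 and were low at P30 in both genotypes, at -5.34 for *S100a4*, -5.10 for *Cck*, -4.72 for *Col8a2*, -4.71 for *Cyp2g1*, -4.63 for *Il31ra*, -4.01 for *Chat*, -3.82 for *Tgm5*, -3.82 for *Myoc*, -3.62 for *Sncg*, -3.57 for *Mrgprf*, -3.53 for *Akr1c18*, -3.49 for *Grem1* and -3.02 for *Fgf18*. It was -3.58 for *Cdh13*, -3.29 for the sort marker *Cd34* and -3.16 for *Nfatc1*. The differences of *Tgm5* and *Fgf18* were lost in each fit without 1 P30 library, that of *Nfatc1* in 2 and that of *Sncg* in 1.

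The 12 genes called in opposite directions at the 2 ages had differences of -6.48 for *Serpina3i*, -6.42 for *Col6a1*, -6.0 for *Col6a2*, -4.20 for *Emp3*, -3.07 for *Wif1*, -3.05 for *Stfa3*, -2.80 for *Lpl*, -2.34 for *Ergic1*, 2.53 for *Gm17349*, 3.22 for *Npw*, 3.82 for *Tmprss7* and 6.42 for *Sprr4*. Their P30 calls were kept in every fit without 1 P30 library for *Col6a1*, *Col6a2* and *Emp3*.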

How the results depend on the processing

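At P56, 816 genes were called with a pseudocount of 5 FPKM, 398 higher and 418 lower, against 1493 with 1 FPKM. A larger pseudocount shrinks the changes of genes with low FPKM. The 4 P56 libraries alone gave 1007, the replicate block 1604, and leaving out 1 library 1333 to 1758, with 582 to 929 higher and 675 to 857 lower. The test of the difference between ages gave 977, the replicate block 1129, and leaving out 1 library 366 to 1236, with 203 to 676 higher and 158 to 560 lower. Replicates of the groups share only a number in the labels, and their deviations correlated at -0.00337 to 0.18. The block lost none of 191 calls among 221 named and listed genes, a pseudocount of 5 FPKM lost 42, the 4 P56 libraries alone 41, and leaving out 1 P56 library 19 to 29, and no direction was reversed. The causes were not tested. Read totals per library were not used here.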
